A study of Mus musculus with 6 samples.

Results

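The DNA replication machinery was followed in mesenchymal stem cells of mouse skeletal muscle through 49 genes. They were set by name from the subunits, loaders, regulators and nucleotide-supplying enzymes of S phase, with earlier results of these data known. All 49 were found among the 18124 genes of the deposited count table by matching Ensembl identifiers to symbols, and all 49 passed the filter on low counts, as did 14644 genes in total. The cells were sorted from quadriceps of naïve male mice (n = 6) of genotype Col1-GFP, in which a collagen 1 promoter drives green fluorescent protein, as live cells positive for that reporter and for Sca-1, the product of Ly6a. They were expanded to passage 4 and then cultured for 72 hours in conditioned medium of wild-type bone marrow-derived macrophages, which was collected over 48 hours, pooled from repeated collections, frozen, and renewed on the cells at 24 and 48 hours. The control group received medium of control macrophages. The senescent-medium group received medium of macrophages exposed to hydrogen peroxide at 300 µM for 3 hours, exposed again after 3 days, and cultured 14 days further. Each group had 3 libraries. The labels do not state whether replicate libraries stem from different cell isolates or batches of medium, nor how long control macrophages were cultured. The p-values therefore reflect library-to-library spread that could be purely technical.

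Before a cell copies its genome, the origin recognition complex, Cdc6 and Cdt1 load the ring-shaped MCM helicase onto origins, a step that geminin blocks once S phase has begun. The kinases CDK2 with cyclin E and Cdc7 with Dbf4 then help to recruit Cdc45 and the GINS complex, which turn MCM into the active helicase. Polymerase alpha-primase starts each strand, polymerases epsilon and delta extend it on the PCNA clamp loaded by RFC, and RPA, Fen1 and DNA ligase 1 handle the single-stranded DNA and the joining of Okazaki fragments. Many of these genes are transcribed under control of E2F factors as cells pass from G1 to S phase, and quiescent stromal cells of muscle keep them low.

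Library totals ran from 17228162 to 21659434 estimated counts. All 5 of 5 listed markers of the sorted stromal cells were present in both media, at a summed level of 10038 to 10136 CPM (counts relative to the scaled library size) in control and 13382 to 13740 CPM in senescent-medium libraries. Within this sum Col1a1, Col3a1 and Dcn had log2 fold changes of 0.49 ± 0.033, 0.48 ± 0.032 and 0.47 ± 0.078, Pdgfra fell (log2 fold change −0.29 ± 0.036, SE) and Ly6a missed the threshold (0.034 ± 0.035). Of 5 listed markers of proliferating cells (Mki67, Top2a, Ccna2, Ccnb1, Cdk1), all 5 fell, and their sum went from 358 to 387 CPM in control libraries to 130.1 to 142 CPM. The macrophage markers Adgre1, Ptprc and Itgam were not listed in the table, and the 3 that were (Csf1r, Cd68, Lyz2) summed to 11.4 to 14.1 CPM in control and 14.7 to 19.6 CPM in senescent-medium libraries. Of these Lyz2 rose (0.80 ± 0.12), Csf1r fell (−0.53 ± 0.19) and Cd68 missed the threshold (0.53 ± 0.32). Myogenic markers were represented by Des alone of 5, at 1.41 to 1.89 and 4.33 to 5.86 CPM. Endothelial markers by 3 of 4 summed to 23.5 to 26.0 and 25.7 to 32.5 CPM, most of it Tek, and glial markers by 2 of 3 summed to 0.845 to 1.06 and 0.672 to 1.15 CPM. The part of these cell types, and of the fall in proliferation markers, in the results on replication genes was not tested.

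Most of the listed replication genes were lower in senescent macrophage medium, at steps from helicase loading to the joining of fragments. The list was drawn up with earlier results of these data known, so the counts describe it and are no test of the machinery as a whole. Of the 49 genes, 46 fell at an adjusted p under 0.05, where 24.9% of all tested genes did so, and 0 rose, where 24.6% of all genes did (edgeR quasi-likelihood test, Benjamini-Hochberg adjustment over all 14644 genes). None rose at an unadjusted p under 0.05 either (0 of 49), and DESeq2 and limma-voom also gave 0. A fall of at least 1.5-fold was called for 31 of 49, against 7.05% of all genes, and of at least 2-fold for 11 of 49, against 3.27%. The levels in the 3 senescent-medium libraries lay wholly below those in the 3 control libraries for 48 of 49 genes, against 28% of all genes. The median log2 fold change, senescent over control medium, was −0.70, which is 61.4% of the control level, beside a median of −0.00096 over all tested genes. With library totals alone as the scaling, the median of all genes moved to −0.082, 32.9% of them fell and 17.7% rose, and of the 49 replication genes 47 fell and 0 rose. By library, the median of the 49 log2 levels relative to the control mean was −0.70, −0.67 and −0.69 in senescent-medium replicates 1, 2 and 3, and between −0.015 and 0.032 in the control libraries. In bulk RNA, fewer cells in S phase and less of these transcripts per cell cannot be told apart.

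**Figure D1:**
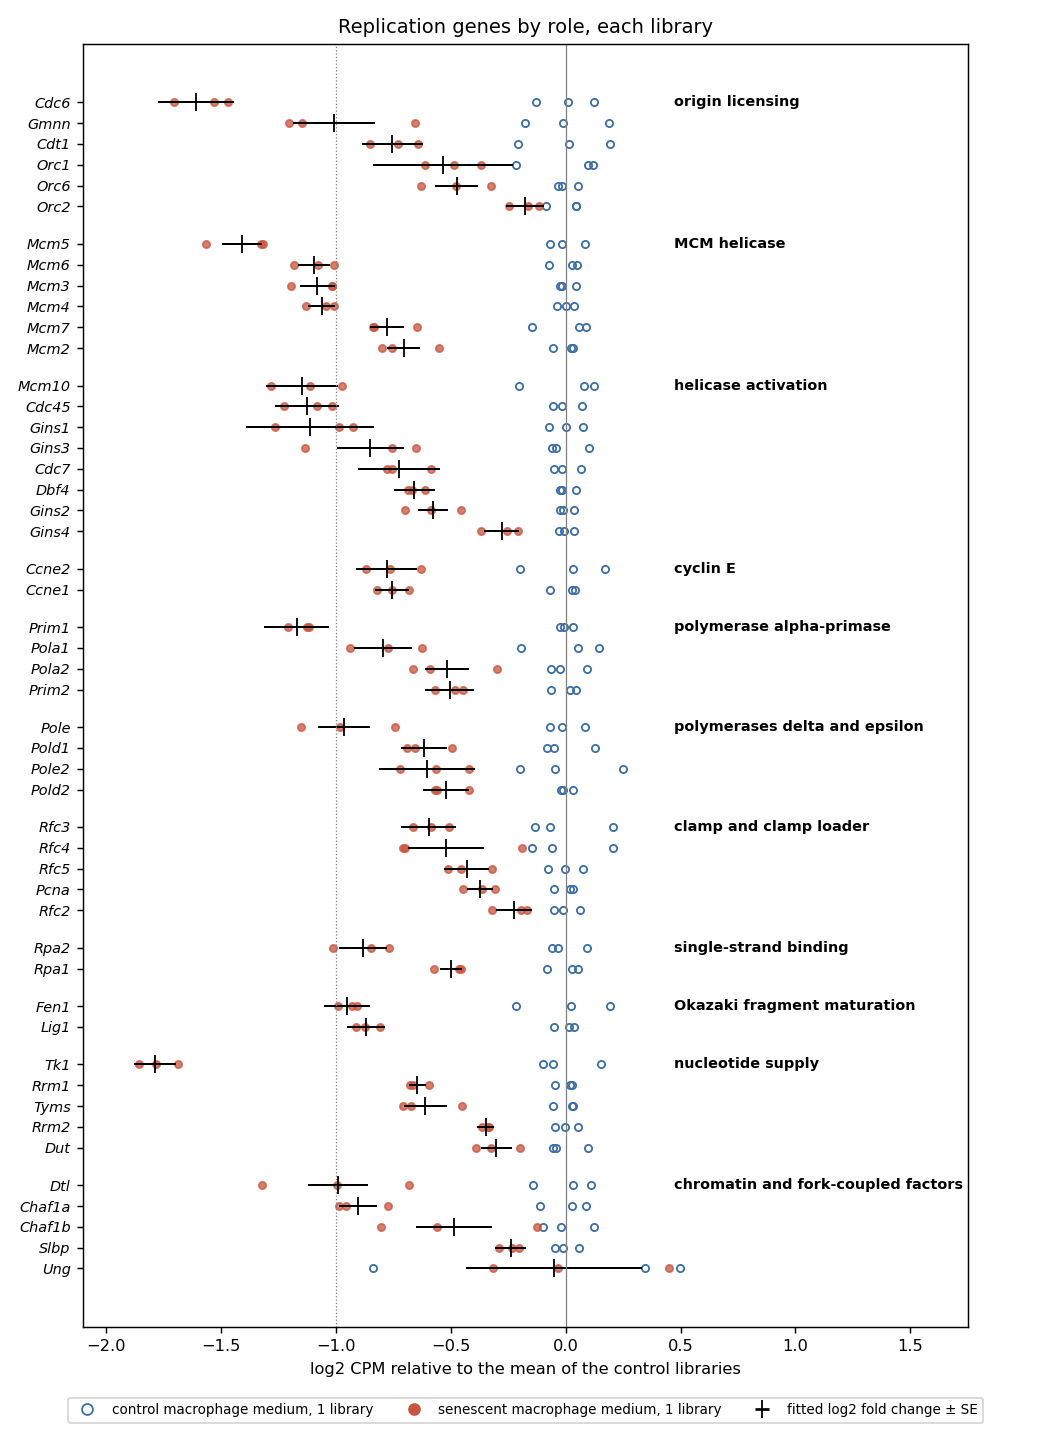
Log2 CPM of each of the 49 replication genes relative to the mean of the control libraries (x axis), 1 row per gene, grouped by role. Open points are the 3 control libraries, filled points the 3 senescent-medium libraries, black marks the fitted log2 fold change ± SE, and the dotted line lies at −1; all rows but that of Ung show filled points to the left of all open points.

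Origin licensing genes spanned a wide range, from Cdc6, the ATPase that joins the origin recognition complex to start helicase loading, to the core subunit Orc2. Of 6 genes 4 fell, where 24.9% of all genes did, and the median of their log2 fold changes was −0.64. Cdc6 was at 6.37, 7.01 and 7.59 CPM in the control libraries and at 2.06, 2.34 and 2.45 CPM in the senescent-medium libraries, which gave a log2 ratio of −1.61 ± 0.17 by edgeR (adjusted p = 1.34e-09). A value after ± is the SE wherever it follows such a fitted log2 fold change. No senescent-medium library came near a control library for this gene. A processed copy of Cdc6, Gm9430, matches 33.1% of its transcript at 95.2% identity and was not among the listed genes. Whether reads of Cdc6 were affected by it was not tested. The licensing factor gene Cdt1 fell from 10.6, 8.03 and 9.39 CPM to 5.57, 5.91 and 5.10 CPM (−0.75 ± 0.13). Its inhibitor geminin, encoded by Gmnn, fell from 6.48, 5.63 and 5.01 CPM to 2.40, 2.50 and 3.56 CPM (−1.01 ± 0.18), with senescent-medium replicate 3 above the other two. The groups did not overlap for either gene.

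Subunits of the origin recognition complex itself had log2 fold changes closer to zero than Cdc6, Cdt1 or Gmnn. Orc6, its smallest subunit, fell (−0.48 ± 0.092). Orc1, the subunit whose protein level follows the cell cycle, was barely detected, with 23 to 36 estimated counts in control and 18 to 24 in senescent-medium libraries. Its levels of 1.63, 1.66 and 1.29 CPM in control and 1.06, 0.959 and 1.15 CPM in senescent-medium libraries gave a log2 fold change of −0.53 ± 0.30 that missed the threshold (adjusted p = 0.151, edgeR), although the groups did not overlap. Orc2 was at 17.8, 19.5 and 19.5 CPM and at 15.9, 17.5 and 16.9 CPM, and missed it too (−0.18 ± 0.083, adjusted p = 0.0742, edgeR). With library totals alone as the scaling, and without control replicate 1, Orc2 passed (adjusted p = 0.0110 and 0.0389, edgeR). Exons of Nif3l1 on the opposite strand overlap 29.8% of those of Orc2, and the strand setting of the counting is not known, so the level of Orc2 is uncertain. The same holds to a lesser extent for Orc1, overlapped over 10.8% by Gm12743.

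All 6 subunits of the MCM helicase, which unwinds DNA ahead of the fork, fell, where 24.9% of all genes did. Their median log2 fold change was −1.07, and 4 of the 6 fell at least 2-fold, where 3.27% of all genes did. Mcm5 fell furthest, from 30.1, 28.1 and 27.2 CPM in the control libraries to 9.55, 11.3 and 11.3 CPM in the senescent-medium libraries (−1.41 ± 0.086, adjusted p = 1.03e-14, edgeR). Mcm2 fell least, from 34.8, 34.6 and 32.8 CPM to 20.1, 23.2 and 19.5 CPM (−0.70 ± 0.072). Neither gene's groups overlapped. Log2 fold changes of the other subunits were −1.10 for Mcm6, −1.08 for Mcm3, −1.06 for Mcm4 and −0.78 for Mcm7, each with an SE of 0.059 to 0.076. The log2 ratio of Mcm5 to Mcm2 within a library, a pair chosen after its values were seen and not tested, was −0.21, −0.30 and −0.27 in control and −1.07, −1.03 and −0.78 in senescent-medium libraries.

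Per kilobase of exon, Mcm4 was the highest MCM gene in control medium at 15.7 ± 0.387 CPM per kb (mean ± SD, n = 3). Exons of all annotated isoforms were counted, so the order of genes depends on the annotated lengths. Mcm7, Mcm6 and Mcm3 followed at 8.56 ± 0.735, 8.5 ± 0.383 and 8.39 ± 0.223 CPM per kb, closer to each other than their SDs. Mcm5 at 7.13 ± 0.381 and Mcm2 at 4.89 ± 0.157 CPM per kb were the lowest. In senescent medium Mcm2 stood at 3.01 ± 0.282 and Mcm5 at 2.69 ± 0.256 CPM per kb, and their libraries overlapped. Before division by exon length (6.956 kb for Mcm2, 3.993 kb for Mcm5), Mcm2 had the higher mean CPM in both media. The means of Mcm2 and Mcm5 were 34.0 and 28.5 CPM in control and 20.9 and 10.7 CPM in senescent medium. Their order per kb thus depends on the lengths used. A processed copy of Mcm7, Gm5487, matches 72.8% of its transcript at 97.7% identity and was listed at 1.2 to 2.99 CPM, so reads of Mcm7 may be split with it. The sum of both gave a log2 ratio of −0.78, the value of Mcm7 alone.

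Among the 8 genes that turn the loaded helicase on, all 8 fell (median log2 fold change −0.79), where 24.9% of all genes did. Mcm10, a scaffold for helicase activation, had the largest change, from 6.31, 7.93 and 7.71 CPM in control libraries to 3.31, 2.93 and 3.65 CPM in senescent-medium libraries (−1.15 ± 0.15). Cdc45, the cofactor that joins MCM and GINS in the active helicase, changed by −1.13 ± 0.14. The 4 GINS subunits fell by unequal amounts, with −1.11 ± 0.28 for Gins1, −0.85 ± 0.15 for Gins3, −0.58 ± 0.065 for Gins2 and −0.28 ± 0.076 for Gins4. Gins4 was at 23.0, 24.2 and 23.5 CPM in control and 19.7, 20.4 and 18.2 CPM in senescent-medium libraries, a narrow gap between groups. Within libraries, the log2 ratio of Gins1 to Gins4 went from −3.26, −3.48 and −3.36 to −4.10, −4.42 and −3.92 (chosen after the values were seen, not tested), and Gins1 rested on 16 to 45 estimated counts. Cdc7 and its activator Dbf4, the kinase pair that phosphorylates MCM, changed by −0.73 ± 0.18 and −0.66 ± 0.088. The exons of Gins2 overlap by 67.3% with those of Gse1 on the opposite strand, which was at 43.7 CPM in control and 39.1 CPM in senescent medium. Whether reads of Gse1 were counted for Gins2 was not tested.

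The cyclin E genes, whose products activate CDK2 at the start of S phase, both fell, where 24.9% of all genes did. Ccne1 went from 29.9, 29.7 and 27.7 CPM to 18, 16.4 and 17.2 CPM (−0.76 ± 0.075) and Ccne2 from 7.94, 10.3 and 9.34 CPM to 5.33, 5.86 and 4.95 CPM (−0.78 ± 0.13). Neither gene's groups overlapped, and Ccne1 had the higher counts in every library. Exons of Ints8 on the opposite strand cover 17.4% of those of Ccne2.

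**Figure D2:**
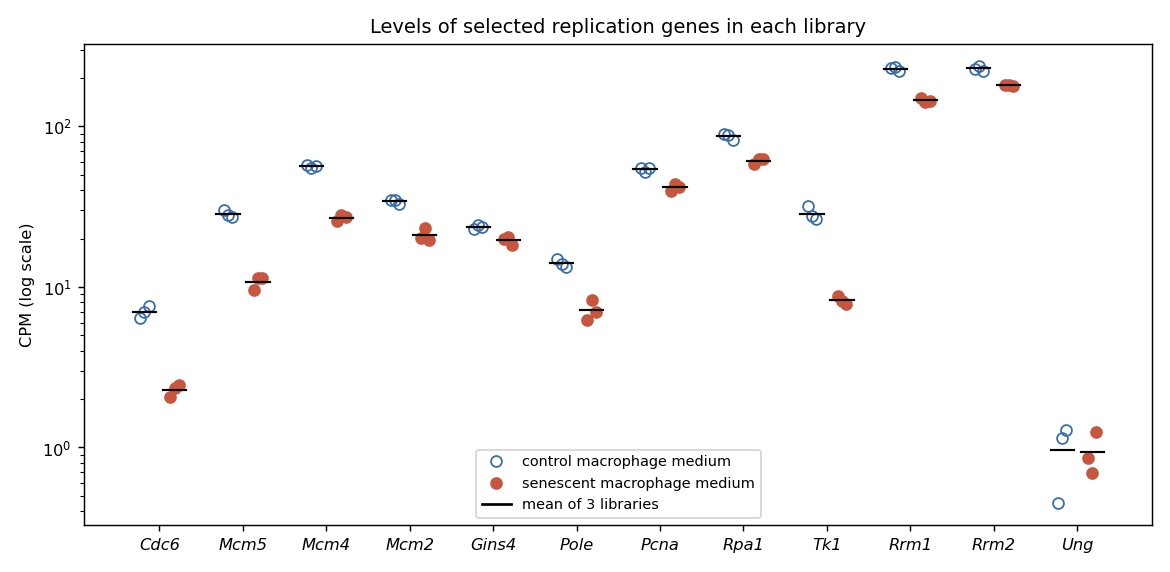
CPM on a log scale (y axis) of 12 replication genes in each control library (open points) and each senescent-medium library (filled points), with bars at the means of 3 libraries. Cdc6, Mcm5 and Tk1 show the widest gaps between media, Rrm2 and Gins4 narrow ones, and the libraries overlap for Ung alone.

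All 4 subunits of polymerase alpha-primase, which lays down the RNA-DNA primers, fell (median log2 fold change −0.66), where 24.9% of all genes did. Prim1, the catalytic primase, fell from 8.11, 8.21 and 8.44 CPM in control libraries to 3.74, 3.73 and 3.51 CPM in senescent-medium libraries (−1.17 ± 0.14). The regulatory primase subunit Prim2 fell from 11.8, 11.2 and 12 CPM to 7.82, 8.52 and 8.32 CPM (−0.50 ± 0.11), the smallest change of the 4. Within a group the libraries of either primase gene differed by less than the gap between groups. Pola1, the polymerase subunit, changed by −0.79 ± 0.13 and its partner Pola2 by −0.52 ± 0.095.

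All 4 listed subunits of the extending polymerases fell as well (median −0.61), where 24.9% of all genes did. Pole, the catalytic subunit of polymerase epsilon that copies the leading strand, was at 14.8, 13.8 and 13.3 CPM in control and 6.24, 8.31 and 7.02 CPM in senescent-medium libraries (−0.96 ± 0.11). Pold1, the catalytic subunit of lagging-strand polymerase delta, changed by −0.62 ± 0.10. Pold2, its accessory subunit, was at 13.7, 13.2 and 13.3 CPM and 9.02, 10.0 and 9.09 CPM (−0.52 ± 0.10). For Pole and Pold2 every senescent-medium library was below every control library. Pole2, the second subunit of polymerase epsilon, changed by −0.60 ± 0.21 (adjusted p = 0.0170, edgeR), which DESeq2 did not call (adjusted p = 0.0702), nor edgeR fits lacking control replicate 2 (0.124) or senescent-medium replicate 2 (0.0660).

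The clamp and clamp loader genes had a median log2 fold change of −0.43. All 5 fell, where 24.9% of all genes did, but 3 did without control replicate 1 or without senescent-medium replicate 2. Rfc2 (adjusted p = 0.0542 and 0.0912, edgeR) and Rfc4 (0.0586 and 0.0610) were lost in both cases. Rfc4 also missed without senescent-medium replicate 1 (adjusted p = 0.0565, edgeR) and Rfc2 with DESeq2 (adjusted p = 0.0689). Pcna, the sliding clamp that holds polymerases on DNA, was at 55.3, 52.2 and 54.9 CPM in control and 39.7, 43.7 and 42.1 CPM in senescent-medium libraries (−0.37 ± 0.055, adjusted p = 1.38e-06, edgeR). Of the loader subunits, Rfc3 changed most, from 12.6, 10.4 and 9.95 CPM to 6.86, 7.67 and 7.26 CPM (−0.60 ± 0.12), and Rfc2 least, from 22.9, 21.8 and 21.1 CPM to 19.2, 17.5 and 19.5 CPM (−0.23 ± 0.079). The groups did not overlap for any of these 3 genes, though for Rfc2 they lay close. Rfc4 and Rfc5 changed by −0.52 ± 0.16 and −0.43 ± 0.097. Opposite-strand exons of Lat2, Eif4a2 and Wsb2 cover 15.1%, 12.7% and 10.7% of those of Rfc2, Rfc4 and Rfc5, and a processed copy, Gm12870, matches 36.5% of the Rfc5 transcript at 96.2% identity, so these 3 levels are uncertain. A processed copy of Pcna, Pcna-ps2, matches 51.4% of the Pcna transcript at 99.2% identity and was listed at 18.4 CPM in control and 12.8 CPM in senescent medium. Summed over both, the level was 72.5 ± 1.45 CPM in control and 54.6 ± 0.97 CPM in senescent medium (mean ± SD, n = 3), a log2 ratio of −0.41.

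RPA coats single-stranded DNA at the fork. Its large subunit gene Rpa1 fell from 89.7, 88.0 and 81.7 CPM in control to 58.0, 62.6 and 63.0 CPM in senescent-medium libraries (−0.50 ± 0.049) and the middle subunit gene Rpa2 from 15.9, 14.3 and 14.6 CPM to 8.26, 8.74 and 7.36 CPM (−0.88 ± 0.10). The groups of either gene were well apart. Fen1, the flap nuclease that trims Okazaki fragments, fell from 23.3, 17.5 and 20.6 CPM to 10.6, 10.2 and 10.8 CPM (−0.95 ± 0.099), and Lig1, the ligase that seals them, from 24.5, 23.1 and 24.1 CPM to 13.0, 13.6 and 12.6 CPM (−0.87 ± 0.082). Control libraries of Fen1 spread more widely than those of Lig1, and still none reached a senescent-medium value. An antisense gene, Gm10143, overlaps 78.8% of the Fen1 exons and was listed at 0.160 to 1.29 CPM.

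Genes for nucleotide supply held the largest change of all and some of the smallest. All 5 fell, where 24.9% of all genes did, and their median log2 fold change was −0.61. Tk1, the cytosolic thymidine kinase that salvages thymidine in S phase, fell from 31.7, 27.4 and 26.6 CPM in control to 8.78, 8.20 and 7.79 CPM in senescent-medium libraries. Its log2 fold change of −1.79 ± 0.092 corresponds to 29.0% of the control level (adjusted p = 1.58e-16, edgeR). Rrm1 and Rrm2, the large and small subunits of ribonucleotide reductase, which makes deoxyribonucleotides, were the replication genes with the highest CPM. Rrm1 fell from 231, 233 and 221 CPM to 151, 143 and 144 CPM (−0.65 ± 0.038), and Rrm2 from 229, 238 and 222 CPM to 182, 182 and 178 CPM (−0.35 ± 0.037). For both subunits the gap between groups was wider than the range within either group. Thymidylate synthase gene Tyms changed by −0.61 ± 0.092. Dut, which removes dUTP, had the smallest change of the 5, from 34.2, 34.6 and 38.1 CPM to 28.4, 27.2 and 31.0 CPM (−0.30 ± 0.067), without overlap.

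Of 5 genes that act on chromatin or behind the fork, 4 fell (median −0.49), where 24.9% of all genes did. Dtl, the substrate receptor that marks Cdt1 for destruction on PCNA, fell from 11.4, 12.9 and 13.7 CPM in control to 4.99, 6.29 and 7.84 CPM in senescent-medium libraries (−0.99 ± 0.13). The senescent-medium libraries of Dtl differed among themselves, replicate 1 being lowest, and stayed below all controls. The histone chaperone subunits of CAF-1, Chaf1a and Chaf1b, changed by −0.91 ± 0.082 and −0.49 ± 0.16. The call of Chaf1b (adjusted p = 0.0151, edgeR) failed in DESeq2 (adjusted p = 0.0620) and in edgeR fits lacking control replicate 1 (0.0544) or senescent-medium replicate 1 (0.119) or 3 (0.0580). Over 52.5% of their length, Chaf1a exons overlap Ubxn6 on the opposite strand, which was at 42.8 and 43.4 CPM. Slbp, which binds the stem-loop of histone messenger RNAs, changed by −0.24 ± 0.068. A processed copy of Slbp, Gm8396, matches 43.4% of its transcript at 95.5% identity and was not among the listed genes. Ung, the uracil glycosylase gene, was the only one of the 49 whose groups overlapped. It was at 0.451, 1.15 and 1.29 CPM in control and 0.864, 0.692 and 1.25 CPM in senescent-medium libraries (−0.05 ± 0.38, adjusted p = 0.927, edgeR), from 8 to 26 estimated counts. Its SE was the largest of the 49 genes, so the depth leaves a wide range for its change.

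Set side by side, the median log2 fold changes of the role groups ran from −1.07 for the MCM helicase to −0.43 for the clamp and its loader. The highest MCM value, −0.70 ± 0.072 for Mcm2, was below the lowest of the clamp group, −0.60 ± 0.12 for Rfc3, but their SE ranges overlapped. Medians in between were −0.91 for Okazaki fragment maturation, −0.79 for helicase activation, −0.77 for cyclin E, −0.69 for RPA, −0.66 for polymerase alpha-primase, −0.64 for licensing, −0.61 for polymerases delta and epsilon and for nucleotide supply, and −0.49 for chromatin and fork-coupled factors. Groups of 2 to 8 genes with ranges as wide as −1.79 to −0.30 in nucleotide supply overlap in most cases, and differences between role groups were not tested.

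The complexes also have subunits outside the 49 genes. Of 11 such subunits 3 fell, 2 rose and 6 missed the threshold, near the 24.9% and 24.6% of all genes that fell and rose. Their median log2 fold change was −0.049, beside −0.70 for the 49. In the origin recognition complex, Orc3 was at 33.5, 34.0 and 31.4 CPM in control and 32.5, 32.5 and 34.5 CPM in senescent-medium libraries (0.0059 ± 0.063), with overlapping groups, and Orc4 gave 0.011 ± 0.066. Orc5 rose from 13.7, 14.6 and 17.3 CPM to 18.5, 17.6 and 19.0 CPM (0.28 ± 0.09), which DESeq2 did not call (adjusted p = 0.0509), nor edgeR with library totals (0.0807) or lacking control replicate 1 (0.0683), control replicate 2 (0.0604) or senescent-medium replicate 3 (0.050). Pold4, the small subunit of polymerase delta, rose from 31.4, 27.4 and 28.6 CPM to 38.8, 33.8 and 35.8 CPM (0.32 ± 0.068), opposite to Pold1 and Pold2, while Pold3 gave −0.25 ± 0.12 and missed the threshold. Exons of AC109138.7 on the same strand overlap 24.6% of those of Pold4, so the level of Pold4 is uncertain. Pole3 fell (−0.19 ± 0.063), which DESeq2 did not call (adjusted p = 0.0560), nor edgeR lacking control replicate 2 (0.0571) or senescent-medium replicate 2 (0.0520) or 3 (0.103). Its partner Pole4 gave 0.074 ± 0.072. The large clamp loader subunit Rfc1 gave −0.12 ± 0.06 and the small RPA subunit Rpa3 −0.049 ± 0.13, neither past the threshold. Cdk2, the kinase partner of cyclin E, fell the most of the 11, from 23.2, 22.8 and 26.0 CPM to 14.2, 16.5 and 16.8 CPM (−0.60 ± 0.085), and Rbbp4, the histone-binding subunit shared by CAF-1 with other complexes, changed by −0.36 ± 0.041.

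In each of 7 complexes the fitted log2 fold changes of the genes inside the list lay below those of all the subunits outside it. The list was drawn up with earlier results of these data known, so this split is a description. Some gaps were small: the ± SE ranges overlapped for Rfc2 (−0.23 ± 0.079) and Rfc1 (−0.12 ± 0.06). They also did for Chaf1b (−0.49 ± 0.16) and Rbbp4 (−0.36 ± 0.041), and for both cyclin E genes and Cdk2. Within libraries, the log2 ratio of Rpa2 to Rpa3 went from 1.04, 0.65 and 1.13 in control to 0.20, 0.24 and −0.16 in senescent medium. That of Pold1 to Pold4 went from −1.17, −0.94 and −0.83 to −1.90, −1.86 and −1.97, and that of Pole to Pole3 from −1.37, −1.52 and −1.52 to −2.55, −2.0 and −2.17. The groups did not overlap for any of these 3 ratios, which were chosen after their values were seen and were not tested.

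**Figure D3:**
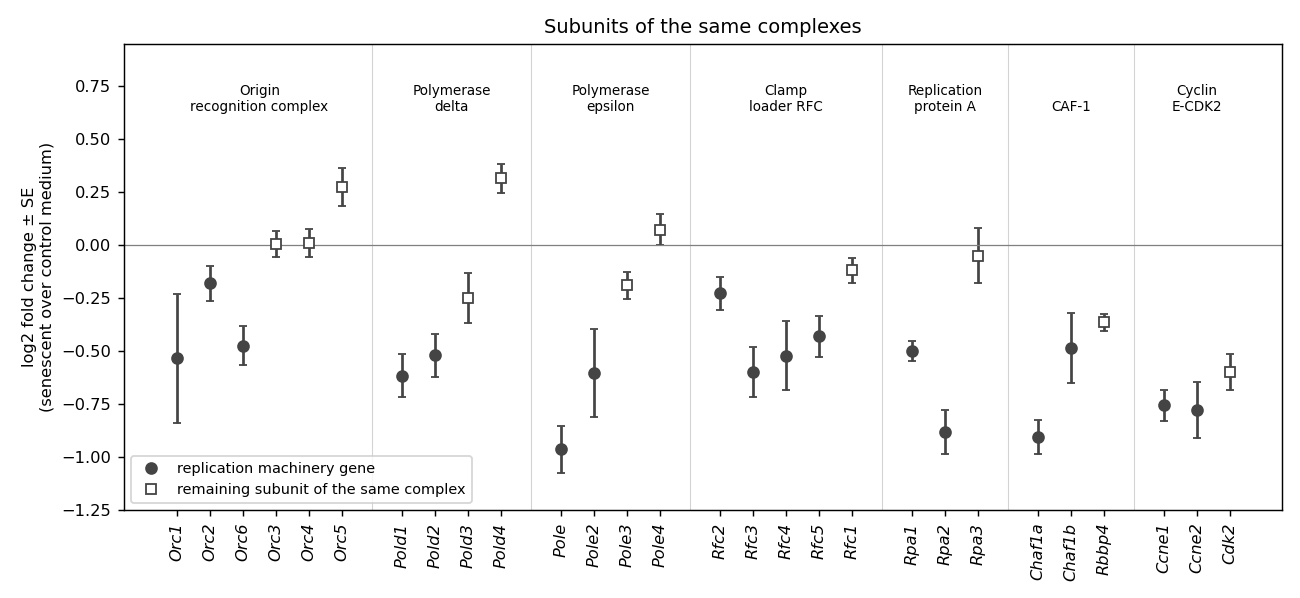
Log2 fold change ± SE (y axis) of the subunits of 7 replication complexes, with filled circles for genes of the replication list and open squares for the remaining subunits. Within each complex every circle lies below every square, from −0.96 for Pole to 0.32 for Pold4, but some SE bars overlap in RFC, CAF-1 and cyclin E-CDK2.

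The wider pathway was read from 61 further genes, grouped by function, of which 35 fell and 8 rose, where 24.9% and 24.6% of all genes did, with a median log2 fold change of −0.30. All 10 origin firing and fork protection factors fell (median −0.80). Clspn, the fork protein claspin that relays checkpoint signals, fell from 13.2, 15.3 and 13.9 CPM in control to 3.79, 3.62 and 5.77 CPM in senescent-medium libraries (−1.68 ± 0.14). Senescent-medium replicate 3 was the highest of its group and still far below the controls. Ticrr and Recql4, which bring helicase factors to origins, changed by −1.43 ± 0.17 and −1.11 ± 0.23, and Timeless by −0.81 ± 0.11. Of 6 histone chaperones and maintenance methylation genes 5 fell, led by Asf1b (9.64, 9.59 and 8.94 CPM to 4.08, 3.78 and 4.42 CPM, −1.19 ± 0.13). The maintenance methyltransferase gene Dnmt1 changed by −0.80 ± 0.051 and its recruiter Uhrf1 by −1.07 ± 0.088. The paralog Asf1a gave −0.18 ± 0.11 and missed the threshold, with 48.0% of its exons overlapped by Mcm9 on the opposite strand. A processed copy of Uhrf1, Gm5648, matches 44.3% of its transcript at 98.3% identity and was among the listed genes. Whether it shared reads with Uhrf1 was not tested.

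Of 5 Okazaki nucleases and RNase H2 subunits 3 fell, where 24.9% of all genes did, namely Exo1, Rnaseh2c (−0.58 ± 0.085) and Dna2 (−0.78 ± 0.29). Kat5 exons on the opposite strand overlap 24.8% of those of Rnaseh2c. Dna2, a flap nuclease and helicase, missed the threshold in DESeq2 (adjusted p = 0.0821) and in edgeR fits lacking control replicate 2 (0.0782) or 3 (0.0577) or senescent-medium replicate 1 (0.0754) or 3 (0.0616). Exo1, an exonuclease of replication and mismatch repair, fell from 5.30, 4.57 and 5.12 CPM to 1.58, 1.38 and 1.97 CPM (−1.59 ± 0.20), whereas the RNase H2 catalytic subunit Rnaseh2a gave 0.065 ± 0.12 and overlapped. Among 3 alternative clamp loader genes 2 fell, led by Chtf18 at 7.83, 8.30 and 7.93 CPM in control and 3.55, 3.84 and 4.42 CPM in senescent-medium libraries (−1.03 ± 0.14). Of 3 helicase relatives and partners 1 fell, Mcmbp (−0.25 ± 0.059), a count near the 24.9% of all genes. The largest fitted value, for Mcm9, missed the threshold, at 8.45, 7.61 and 8.89 CPM and 7.30, 5.01 and 7.84 CPM (−0.30 ± 0.14, adjusted p = 0.0826, edgeR). It passed with library totals (adjusted p = 0.0313, edgeR), with the replicate number as a block (0.0367) and without senescent-medium replicate 3 (0.0322, edgeR).

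Of the other nucleotide enzymes 3 of 9 fell and 3 rose, counts close to the shares of all genes (24.9% and 24.6%). Dck, a salvage kinase, and Samhd1, which breaks down deoxyribonucleotides, changed by −0.59 ± 0.092 and −0.59 ± 0.051. The 3 that rose serve nucleotide supply outside S phase or in mitochondria. Mitochondrial thymidine kinase gene Tk2 rose from 16.8, 19.1 and 19.1 CPM in control to 30.7, 26.7 and 29.7 CPM in senescent-medium libraries (0.66 ± 0.077). Rrm2b, the p53-inducible small subunit of ribonucleotide reductase, rose from 17.4, 16.1 and 17.7 CPM to 24.6, 24.8 and 25.6 CPM (0.55 ± 0.077). A processed copy of Rrm2b, Gm8616, matches 23.0% of its transcript at 96.1% identity and was among the listed genes. Whether it shared reads with Rrm2b was not tested. Dguok, the mitochondrial deoxyguanosine kinase gene, rose from 12.5, 12 and 13.6 CPM to 16.6, 14.0 and 15.9 CPM (0.29 ± 0.095), which DESeq2 did not call (adjusted p = 0.0546), nor edgeR with library totals (0.0746) or lacking control replicate 2 (0.0650) or senescent-medium replicate 1 (0.0693).

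Paired ratios within a library asked whether 1 gene changed more than its partner. For 10 pairs an exact two-sided permutation test over the 6 libraries was run, whose smallest possible p is 0.10, so no pair could pass 0.05. The cytosolic to mitochondrial thymidine kinase ratio, Tk1 to Tk2, was 0.91, 0.52 and 0.48 on the log2 scale in control and −1.79, −1.69 and −1.92 in senescent-medium libraries, a difference of −2.44. Cdc6 to Orc1 went from 1.90, 2.01 and 2.46 to 0.90, 1.21 and 1.02 (−1.08), with few counts behind Orc1. Rrm2 to Rrm2b went from 3.71, 3.87 and 3.65 to 2.88, 2.87 and 2.79 (−0.90), and the replicative to repair ligase ratio, Lig1 to Lig3, from −0.19, −0.27 and −0.41 to −0.94, −0.92 and −0.97 (−0.65). Rrm2 to Rrm1 moved up, from −0.013, 0.032 and 0.0077 to 0.27, 0.35 and 0.31 (0.30). In these 5 pairs the groups did not overlap and the exact permutation p was 0.10 (0.20 adjusted over the 10 pairs).

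In the other 5 pairs the groups overlapped, and the adjusted permutation p ran from 0.333 to 1.0. The log2 ratio of Cdt1 to geminin was 0.71, 0.50 and 0.89 in control and 1.18, 1.21 and 0.51 in senescent-medium libraries (difference 0.26, exact permutation p = 0.30). Pole to Pold1 differed by −0.35 (exact permutation p = 0.20), Orc1 to Orc2 by −0.31 (exact permutation p = 0.30) and Dbf4 to Cdc7 by 0.052 (exact permutation p = 0.50). Ccne2 to Ccne1 was −1.90, −1.52 and −1.56 in control and −1.74, −1.47 and −1.77 in senescent-medium libraries, a difference of −0.0025 (exact permutation p = 1.0), with a spread between libraries of 0.17 to 0.21 (SD).

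**Figure D4:**
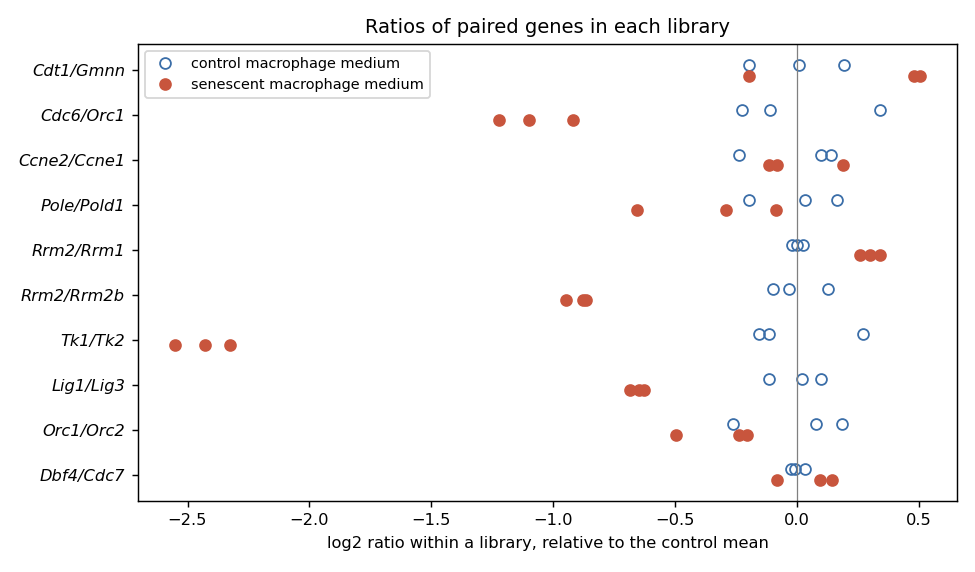
Log2 ratio of the first to the second gene of 10 pairs within each library, relative to the control mean (x axis), with open points for control and filled points for senescent-medium libraries. Tk1/Tk2 shows the widest gap, Rrm2/Rrm1 is the pair with separate groups whose ratio was higher in senescent medium, and 5 pairs overlap.

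Per kilobase of exon the 49 genes covered a wide range in control medium, from 0.177 ± 0.0826 CPM per kb for Ung to 82.9 ± 2.82 for Rrm2. Next to Rrm2 came Pcna at 22.6 ± 0.704 and Rrm1 at 20.7 ± 0.565 CPM per kb, farther apart than their SDs. In senescent medium Rrm2 stood at 65.1 ± 0.767, Pcna at 17.4 ± 0.845, Gins4 at 14.4 ± 0.828 and Rrm1 at 13.2 ± 0.411 CPM per kb, so Rrm1 came after Gins4 there, with means less apart than the sum of their SDs. Tk1 went from 5.50 ± 0.522 to 1.59 ± 0.0962 CPM per kb and Cdc6 from 1.34 ± 0.117 to 0.437 ± 0.0383. Exon lengths came from an annotation of an older build and count all annotated isoforms, which affects levels between genes but not fold changes.

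**Figure D5:**
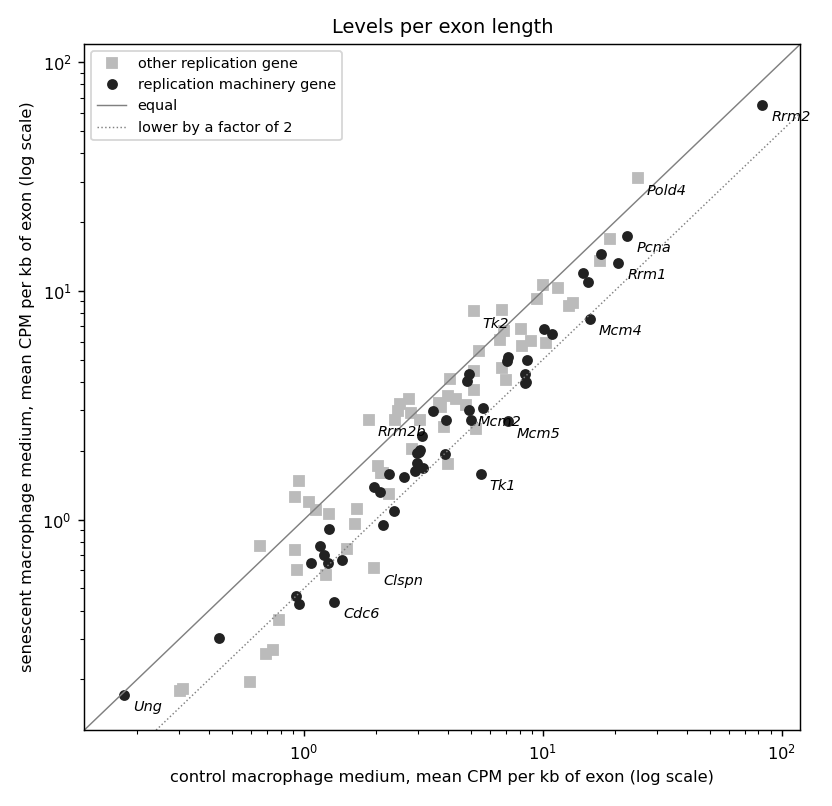
Mean level in senescent medium (y axis) against control medium (x axis), in CPM per kb of exon on log scales, for the 49 replication genes (circles) and 61 other replication genes (squares). The solid line marks equal levels and the dotted line a fall by a factor of 2; the circles lie below the solid line, with Tk1 and Cdc6 farthest under the dotted line.

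Promoters were searched for E2F sites because E2F factors are known regulators of these genes and these genes fell together. Windows of 300 bases, 250 before and 50 after the RefSeq gene start (GRCm38.p6), were found for 40 of the 49 genes. The motif searched was TTCCCGC, its close variant TTCGCGC, the further variant TTGCCGC, or the remaining variant TTGGCGC, each on either strand, and matches may overlap one another. Any of them occurred in 23 of 40 genes (57.5%), against 19.4% of 10299 tested genes with a window and 10.9% of all 27025 genes with one. Among the other replication genes, whose median log2 fold change was −0.30, 24 of 51 with a window (47.1%) held a match too. In the 200 bases before the start alone, 15 of 40 (37.5%) held a match, against 31.4% of the other replication genes and 14.0% of tested genes. CCAAT on either strand occurred in 57.5% of the 40 genes, 43.1% of tested genes and 41.1% of all genes with a window. TTTGAA or TTCGAA, the CHR element of later cell cycle genes, occurred in 22.5% of the 40 genes. It occurred in 16.3% of tested genes and 21.7% of all genes with a window. Its share in the 40 was thus above that of tested genes and near that of all genes with a window. The 23 genes with an E2F match had a median log2 fold change of −0.80 and the 17 without one −0.52. Their ranges of −1.61 to −0.35 and −1.79 to −0.05 overlap. The gene with the largest change, Tk1, held no match in its window. Genes with a CCAAT match had a median of −0.78 and those with a CHR match −0.73. These sets share genes, and differences between them were not tested. A match is a stretch of letters, not a shown binding site.

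The windows of the 5 genes with the largest changes among those with a match are printed to show where the motifs lie, with that of Slbp, the fallen gene with the smallest change among those with a window. They lie at chr11:98907901-98908200 (plus strand) for Cdc6, chr8:75109259-75109558 (plus strand) for Mcm5, chr10:128014965-128015264 (plus strand) for Prim1, chr1:128359656-128359955 (minus strand) for Mcm6, chr1:20820263-20820562 (minus strand) for Mcm3 and chr5:33652525-33652824 (minus strand) for Slbp, and each reads 5′ to 3′ on the strand of the gene. Capitals mark the E2F motifs. Cdc6 and Prim1 hold 1 match each, Mcm5 and Mcm3 hold 3, and Mcm6 holds 5, while Slbp holds none.
Cdc6: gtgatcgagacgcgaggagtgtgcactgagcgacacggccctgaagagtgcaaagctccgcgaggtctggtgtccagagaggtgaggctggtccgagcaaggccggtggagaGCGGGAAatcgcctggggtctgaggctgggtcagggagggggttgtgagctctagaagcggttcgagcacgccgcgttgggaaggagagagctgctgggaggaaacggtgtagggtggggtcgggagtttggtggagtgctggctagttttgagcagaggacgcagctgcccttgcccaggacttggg
Mcm5: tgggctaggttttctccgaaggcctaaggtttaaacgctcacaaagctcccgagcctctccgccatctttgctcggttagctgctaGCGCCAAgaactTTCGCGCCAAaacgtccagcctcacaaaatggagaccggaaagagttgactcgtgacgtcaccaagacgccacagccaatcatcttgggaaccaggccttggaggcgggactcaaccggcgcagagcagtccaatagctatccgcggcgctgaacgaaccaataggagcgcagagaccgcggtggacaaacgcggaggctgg
Prim1: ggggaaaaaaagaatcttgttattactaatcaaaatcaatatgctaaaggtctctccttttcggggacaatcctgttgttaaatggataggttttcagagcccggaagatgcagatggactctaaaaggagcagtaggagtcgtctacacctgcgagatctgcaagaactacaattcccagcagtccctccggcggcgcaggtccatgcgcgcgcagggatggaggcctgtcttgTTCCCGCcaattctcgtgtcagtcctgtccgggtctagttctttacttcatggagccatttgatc
Mcm6: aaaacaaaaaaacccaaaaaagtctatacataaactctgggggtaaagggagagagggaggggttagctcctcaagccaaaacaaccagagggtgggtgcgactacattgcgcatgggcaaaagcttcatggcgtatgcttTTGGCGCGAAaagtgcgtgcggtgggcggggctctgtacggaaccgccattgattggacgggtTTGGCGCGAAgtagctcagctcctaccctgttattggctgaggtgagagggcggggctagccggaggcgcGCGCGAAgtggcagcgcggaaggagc
Mcm3: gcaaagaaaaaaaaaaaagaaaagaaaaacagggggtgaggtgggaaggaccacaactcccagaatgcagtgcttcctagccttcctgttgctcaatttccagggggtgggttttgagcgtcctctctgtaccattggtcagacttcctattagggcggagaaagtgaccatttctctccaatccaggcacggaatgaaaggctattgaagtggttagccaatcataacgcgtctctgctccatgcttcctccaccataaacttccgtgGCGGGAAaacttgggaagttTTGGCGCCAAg
Slbp: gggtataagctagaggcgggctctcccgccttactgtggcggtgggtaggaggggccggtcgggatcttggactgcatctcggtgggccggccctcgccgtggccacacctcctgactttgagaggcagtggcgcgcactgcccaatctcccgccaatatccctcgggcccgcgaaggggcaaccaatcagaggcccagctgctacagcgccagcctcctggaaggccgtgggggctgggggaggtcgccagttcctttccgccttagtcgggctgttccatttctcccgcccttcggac
In the window of Mcm5 the matches begin 164, 152 and 149 bases before the gene start, and in that of Prim1 the match begins 15 bases before it. Cdc6 has its match 138 bases before the start. The Mcm6 window carries 2 clusters of overlapping motifs, beginning 109 and 106 and again 46 and 43 bases before the start, and a further match after it, and in Mcm3 all 3 lie in the transcribed part, 19 to 42 bases after the start.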

How the data were processed

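Bulk RNA sequencing libraries (about 600 ng of RNA each, paired reads of 150 bp) were grouped by sample title into 3 control and 3 senescent-medium libraries. The authors deposited 1 table of estimated counts, indexed by Ensembl gene, with no sign of normalization in the values; STAR, DESeq2 and mm39 are named, without role, per the submitters' processing notes. Which program and annotation made the counts, and whether it used strand, is not given in the sources used here. Every listed gene summed to at least 10 counts, and 70.3% to 72.8% of values in a library lay within 0.01 of a whole number. Values were rounded before testing.

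Symbols and exon lengths came from GENCODE M21 (GRCm38), matched on the identifier for 18092 of 18124 genes (99.8%). Exon overlaps came from the same annotation, and near-identical copies from BLAST 2.17.0 of its transcripts at 95% identity or more. Promoter sequences were from RefSeq (GRCm38.p6); the last 30 bases of the window were found in sense in the gene's own transcripts for 35 of 40 genes and in antisense for 0. All 14644 genes passing edgeR's expression filter were fitted with edgeR 4.0.16 (TMM factors, robust quasi-likelihood F-test, medium as the only term, R 4.3.3), two-sided, with Benjamini-Hochberg adjustment and a threshold of 0.05. Levels are CPM after TMM scaling, log2 CPM used a prior count of 2, and the SE was computed as the size of the log2 fold change over the root of its F statistic. The test was tried on simulated counts first, with 50 genes changed at each of 4 sizes. It recovered 46% of 1.2-fold, 80% of 1.5-fold, 86% of 2-fold and 100% of 4-fold changes, with 14 false calls among 14436 genes. A gene that missed the threshold may therefore still have changed by a small amount.

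The genes, their roles, the 62 other replication genes (of which Chtf8 was left out because its symbol is shared by 2 identifiers), the pairs and the tests were chosen with earlier results of these data known, so counts describe the lists and no list was tested as a set. Every gene of the list is given with its log2 fold change, and in every library the largest and smallest change of each role group, all that did not fall, and Mcm2, Pcna, Cdt1, Gmnn, Ccne1, Ccne2, Rrm1, Rrm2 and Tk1; of the other genes, the largest change of each group, all that rose and the partners of pairs. The result of 1 of the other genes is not reported here. Alternatives were RLE scaling, library totals, removal of the most abundant feature, DESeq2 1.42.0, limma-voom (limma 3.58.1), other filters on low counts, unrounded counts, the replicate number as a block, and each library left out in turn.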

Additional observations from a re-analysis of the deposited data

How the results depend on the processing

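Of the 49 replication genes, 44 kept their call under all 15 alternatives and the other 5 were Orc2, Pole2, Rfc2, Rfc4 and Chaf1b. No called gene changed direction, whereas the fitted value of Ung, never past the threshold, ran from −0.37 to 0.19. The count of genes that fell ran from 43 (DESeq2) to 47 (library totals alone), and from 43 to 46 when 1 library was left out. With library totals alone the median log2 fold change was −0.79 for the 49 genes, −0.72 for licensing, −0.69 for polymerases delta and epsilon and −0.38 for the other replication genes; the scaling moves the median of all genes too. Leaving out each library in turn gave 3 to 5 fallen genes in the clamp group, and medians of −0.69 to −0.57 for licensing, −0.68 to −0.58 for polymerases delta and epsilon, −0.87 to −0.70 for helicase activation and −0.36 to −0.28 for the other replication genes. The cause of these differences was not tested beyond the settings themselves. An E2F match was held by 15 genes in the 200-base window, which is part of the longer one. With the replicate number as a block, 46 of the 49 genes and 37 of the other 61 fell. Deviations of same-numbered libraries correlated at 0.019, 0.002 and 0.026, and those of differently numbered ones at −0.046 to 0.027. Not every library correlated best with its own number. Such correlations cannot tell whether same-numbered libraries shared an isolate or batch of medium, which the labels do not state. Depth limits Orc1, Ung and Gins1, which rested on fewer than 50 estimated counts per library.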

Other observations

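Genes of repair, translesion bypass and mitochondrial replication, which include polymerase genes and others, were lower in 8 of 14 cases and higher in 3. These counts are at an adjusted p under 0.05 (edgeR), where 24.9% and 24.6% of all genes were lower and higher. The median log2 fold change of the 14 was −0.20. Polq, the polymerase of microhomology-mediated end joining, fell from 5.01, 8.26 and 8.32 CPM in control to 2.78, 2.45 and 2.55 CPM in senescent-medium libraries (−1.47 ± 0.18), the largest change of the 14. No senescent-medium library of Polq reached a control value. Lig3, the ligase of base excision repair and mitochondria, fell from 28.0, 27.9 and 32.0 CPM to 25.0, 25.7 and 25.0 CPM (−0.21 ± 0.071), which DESeq2 did not call (adjusted p = 0.0550), nor edgeR lacking control replicate 3 (0.122). Polrmt, the mitochondrial RNA polymerase gene, and Polh, a bypass polymerase gene, changed by −0.55 ± 0.069 and −0.49 ± 0.073. Tfam, a mitochondrial transcription and packaging factor gene, fell (−0.21 ± 0.075), which DESeq2 did not call (adjusted p = 0.0805), nor edgeR lacking control replicate 2 (0.0997) or senescent-medium replicate 1 (0.0539). The call of the bypass polymerase gene Rev1 (−0.26 ± 0.085) failed in the edgeR fit lacking senescent-medium replicate 3 (adjusted p = 0.124). Opposite-strand exons of Rffl and Eif5b cover 25.1% and 26.6% of those of Lig3 and Rev1.

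The 3 genes that rose were Poli, Ssbp1 and Polb. Poli, a bypass polymerase gene, went from 3.72, 3.92 and 3.88 CPM to 5.95, 5.91 and 5.96 CPM (0.63 ± 0.15). Ssbp1, which encodes the mitochondrial single-strand binding protein, went from 8.62, 6.73 and 7.71 CPM to 9.74, 10.3 and 11.5 CPM (0.46 ± 0.12), opposite in sign to Rpa1 and Rpa2. Polb, the gap-filling polymerase gene of base excision repair, went from 9.97, 10.2 and 9.62 CPM to 13.3, 12.3 and 12.2 CPM (0.34 ± 0.10). The groups did not overlap for any of these 3 genes. Of all tested genes, 27.8% lay wholly higher in senescent medium in the same way. A processed copy of Ssbp1, Gm12115, matches 10.2% of its transcript at 97.8% identity and was among the listed genes. Whether it shared reads with Ssbp1 was not tested.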
